A study of Mus musculus with 2 samples.

Results

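Bone morphogenetic protein (BMP) signalling and the ID genes were followed through 10 genes: the ligand Bmp4, the type I receptor Bmpr1a, the secreted antagonists Grem1 and Nbl1, the inhibitory SMADs Smad6 and Smad7, and the ID genes Id1, Id2, Id3 and Id4. The genes were picked with earlier results of these data known, and every probe set that the platform annotation gives to 1 of these symbols alone was used. This gave 20 probe sets of the 34958 that name a single gene, and 10 genes of 18194. The measurements are 2 Affymetrix GeneChip arrays for the mouse genome, hybridised with total RNA from NIH3T3 cells, an immortalised mouse fibroblast line grown in DMEM with fetal bovine serum. One culture had been infected with a retrovirus expressing a control short hairpin RNA and the other with a retrovirus expressing a hairpin against CCR4b. CCR4b, encoded by Cnot6l, is a deadenylase: within the CCR4-NOT complex it removes poly(A) tails from messenger RNAs. The comparison asks which messenger RNAs differ in abundance when this deadenylase is depleted. Both cultures carried an RNAi virus, and the number of hairpins, any selection of infected cells and the time after infection were not given in the labels used here.

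In the BMP pathway a ligand dimer joins type I and type II receptor kinases at the cell surface, and the type I receptor phosphorylates SMAD1, SMAD5 or SMAD9. These enter the nucleus with SMAD4 and bind near target genes. The ID genes are among the most direct of those targets in many cell types, and in fibroblasts they also respond to serum. ID proteins have a helix-loop-helix domain but no basic DNA-binding region, so they hold E proteins such as TCF3 in inactive dimers, and they are known for restraining differentiation and favouring proliferation. SMAD6 and SMAD7 are themselves induced by the pathway and dampen it, whereas gremlin (Grem1) and DAN (Nbl1) bind BMP ligands outside the cell.

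Each group holds 1 array, so no value has a replicate error, no test across arrays was possible, and a gene called "higher" or "lower" is so in these 2 cultures. Fewer cells with a transcript and less of it per cell cannot be told apart in such bulk RNA. Median signals were 7.81 (control) and 8.34 (CCR4b RNAi) arbitrary units. Signals under a floor of 8.07 units, the median of all values, were raised to it before the log2 ratio of the CCR4b RNAi to the control signal was taken, and a gene counted as measured if its brighter array reached the floor. That held for 11915 genes, whose median log2 ratio was -0.07. Cnot6l, the targeted gene, had 102 units in the control culture against 43.0 in the depleted one on its brightest probe set (log2 ratio -1.25) and was lower on all 4 of its probe sets. All 10 listed fibroblast markers were above the floor on both arrays, with a median log2 ratio of 0.41. Of these, 7 lay more than 1 robust SD from the median of genes of like mean signal, as did 3655 of the 11915 measured genes. Sparc, a matrix glycoprotein, was furthest from 0 at 866 and 2045 units on its brightest probe set (log2 ratio 1.24). Its 3 probe sets ran from 0.17 to 1.44. Thy1, a surface glycoprotein, was lower at 221 and 130.4 units (log2 ratio -0.76), and Vim, at 4022 and 3655 units, differed little (log2 ratio -0.14). Of 14 listed markers of epithelial, endothelial, blood, muscle and nerve cells, 10 were below the floor on both arrays, and the 4 measured ones (Epcam, Cd68, Adgre1 and Gfap) summed to 66.0 and 54.3 units. They did not move together: the macrophage marker Cd68 read 24.0 and 9.42 units (log2 ratio -1.35) and Adgre1 13.7 and 9.13 units (log2 ratio -0.58), whereas the epithelial marker Epcam read 19.4 and 29.5 units (log2 ratio 0.61). The part of these marker differences in the BMP and ID values was not tested.

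All 10 genes were measured, and 8 of them were above the floor in both cultures. Nbl1 was 6.26-fold higher after CCR4b RNAi and Smad6 1.71-fold higher, while Id4 was 2.06-fold lower. Id1, Id2, Id3, Smad7 and Bmpr1a lay within 1.5-fold on their brightest probe sets. Bmp4 and Grem1 were below the floor on 1 array each, so their ratios are bounds: Bmp4 was at least 1.07-fold lower, and for Grem1 the bound was 1.43-fold higher. Thus 2 of 10 genes were at least 1.5-fold higher, where 11.3% of all measured genes were, and 1 of 10 was at least 1.5-fold lower, where 14.6% were. Scaling each array by its median signal moved those shares of all genes to 9.1% and 19.0% and left Nbl1, Smad6 and Id4 as the genes past 1.5-fold. At 2-fold the counts were 1 higher, against 3.74% of all measured genes, and 1 lower, against 4.48%. With 10 genes, each count is within 1 gene of those shares. The median log2 ratio of the 10 genes was 0.16, beside -0.07 for all measured genes. Above 0 were 8 of the 10 ratios, the Grem1 bound among them, and 5244 of the 11915 measured genes. With each array scaled by its median signal, Id2 (-0.02) and Smad7 (-0.07) fell below 0. Of the 20 probe sets, 18 were measured, with 2 at or past 1.5-fold in the higher direction and 2 in the lower, where 12.7% and 14.4% of all measured probe sets were. The 3 genes past 1.5-fold have separate roles in the pathway: an extracellular antagonist, an intracellular inhibitor and an ID gene.

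**Figure D1:**
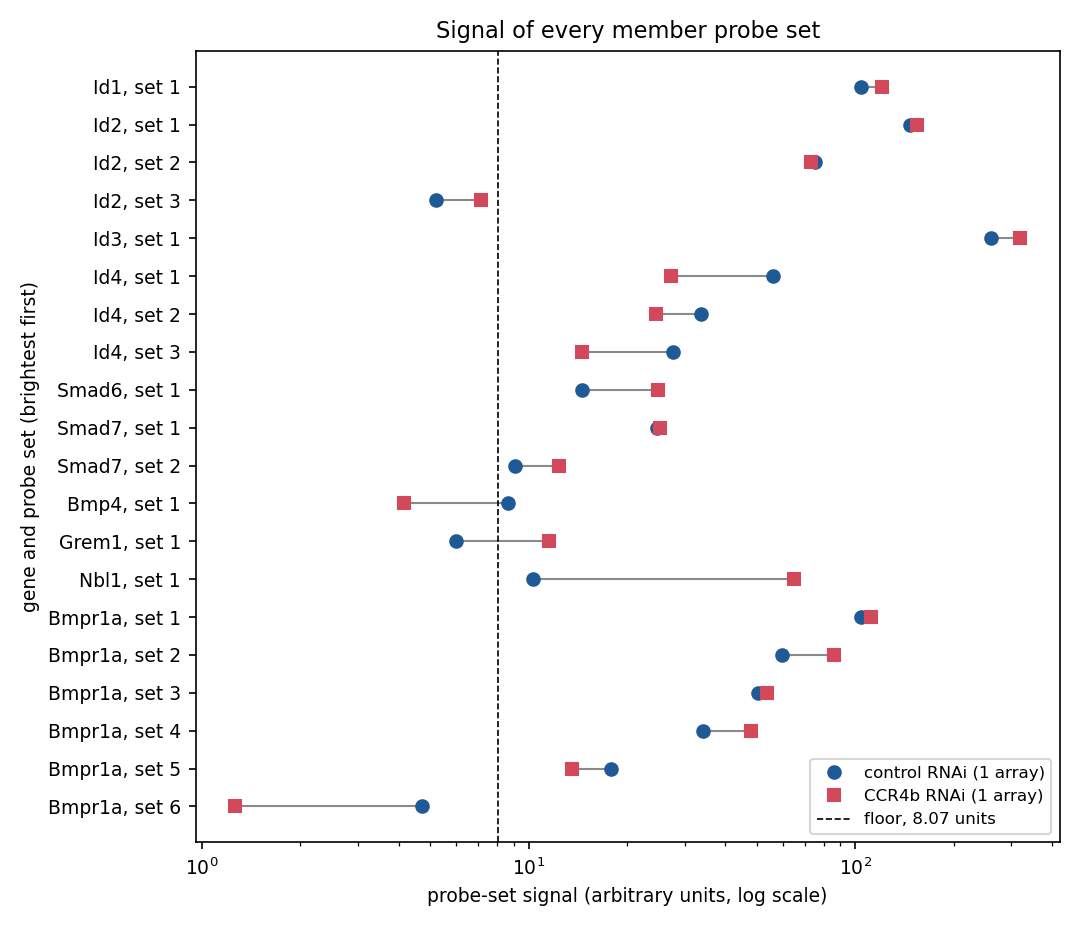
Signal of each of the 20 probe sets on the control array (blue circles) and the CCR4b RNAi array (red squares), in arbitrary units on a log axis, brightest probe set of a gene first; the dashed line is the floor of 8.07 units. Nbl1 spans the widest gap, from 10.3 to 64.8 units, all 3 Id4 probe sets are lower after CCR4b RNAi, and Id2 set 3 and Bmpr1a set 6 lie below the floor on both arrays.

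The 4 ID genes were all above the floor on both arrays, and 3 of them differed little. Id3 read 259.9 units in the control and 320.4 units after CCR4b RNAi, which is 1.23-fold higher (log2 ratio 0.30). The spread used here is the robust SD of log2 ratios among genes of like mean signal, taken in 10 equal classes. For Id3 this class had a median of -0.17 and a robust SD of 0.41, so Id3 lay just past that spread, at percentile 86.7 of its class. Id1, the ID gene most often used as a readout of BMP receptor activity, read 104 and 120.4 units (log2 ratio 0.21), within the robust SD of 0.44 around its class median of -0.14. Id2 read 147 and 154 units on its brighter probe set (log2 ratio 0.07) and 75.3 and 73.2 units on the next (log2 ratio -0.04). These Id2 values differ in sign and by less than the spread of 0.30 log2 units per probe set found between probe sets of the same gene. Another Id2 probe set, at 5.21 and 7.14 units, was below the floor in both cultures. With each array scaled by its median signal the ratio of the brighter Id2 probe set lay on the other side of 0, at -0.02, while Id1 and Id3 stayed above 0 under each scaling tried.

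Id4 was the exception in the family. The signal was 56.1 units in the control and 27.2 units after CCR4b RNAi on its brightest probe set, a log2 ratio of -1.04 that lay at percentile 4.78 of genes of like signal (class median -0.03, robust SD 0.57). The other probe sets read 33.7 and 24.5 units (log2 ratio -0.46, 1.37-fold lower) and 27.6 and 14.6 units (log2 ratio -0.92, 1.89-fold lower). All 3 were lower after CCR4b RNAi, by amounts that spanned 1.37-fold to 2.06-fold. The 3 were designed from a single source sequence, so they are not independent readings. The difference between Id4 and its 3 relatives was not tested, since there is 1 array per group. Among the 11915 measured genes 462 had a lower ratio than Id4. Genes of cell division were lower in the same array. On their brightest probe sets all 11 measured of 12 listed genes were at least 1.5-fold lower, where 14.6% of all measured genes were. Their log2 ratios ran from -1.94 to -0.66, and Mki67, a marker of cycling cells, read 237 and 96.5 units. Their part in the Id4 value was not tested. On their brightest probe sets Id1, Id2 and Id3 had ratios above 0.

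The promoters of 3 ID genes are printed here because Id4 parted from Id2 and Id3. No RefSeq promoter stretch was matched for Id1. Each is the 250 bases before and 50 bases after the annotated start, from RefSeq on GRCm38.p6, 5′ to 3′ on the gene's strand. Capitals mark matches to motifs that SMAD proteins are known to bind: GGCGCC, the related letters GGAGCC, and the short element CAGAC. All were searched on both strands, and no matches to different motifs overlapped in the printed stretches. The stretches lie at chr12:25096043-25096342 (minus strand) for Id2, chr4:136143572-136143871 (plus strand) for Id3 and chr13:48260866-48261165 (plus strand) for Id4.
Id2: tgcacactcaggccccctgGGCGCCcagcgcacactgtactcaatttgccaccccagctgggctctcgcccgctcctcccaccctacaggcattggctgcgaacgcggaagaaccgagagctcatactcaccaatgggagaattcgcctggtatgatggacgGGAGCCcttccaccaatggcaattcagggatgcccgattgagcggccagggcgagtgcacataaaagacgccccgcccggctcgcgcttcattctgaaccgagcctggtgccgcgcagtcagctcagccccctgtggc
Id3: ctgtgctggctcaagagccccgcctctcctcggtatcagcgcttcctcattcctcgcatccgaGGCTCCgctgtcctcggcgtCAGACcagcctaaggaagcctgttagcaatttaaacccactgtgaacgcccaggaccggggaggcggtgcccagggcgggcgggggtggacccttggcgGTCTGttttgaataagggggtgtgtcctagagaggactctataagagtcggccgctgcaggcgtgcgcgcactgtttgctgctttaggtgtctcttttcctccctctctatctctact
Id4: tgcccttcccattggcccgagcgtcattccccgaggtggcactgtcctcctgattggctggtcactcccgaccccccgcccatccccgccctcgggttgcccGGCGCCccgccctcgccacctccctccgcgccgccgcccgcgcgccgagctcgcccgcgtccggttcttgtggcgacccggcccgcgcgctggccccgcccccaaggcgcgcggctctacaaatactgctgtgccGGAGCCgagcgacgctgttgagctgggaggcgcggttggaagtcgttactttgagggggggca
The Id2 and Id4 stretches each hold 1 match to GGCGCC and 1 to GGAGCC, and neither holds CAGAC. In Id4 these begin 148 and 13 bases upstream of the start, and in Id2 231 and 88 bases upstream. Id3 has no GGCGCC, 1 GGAGCC match (as GGCTCC, 187 bases upstream) and 2 CAGAC matches, 167 and 68 bases upstream. Of 32851 RefSeq promoter stretches of this length, 11.9% hold GGCGCC, 30.8% GGAGCC and 49.6% CAGAC. The E-box CANNTG, the site of E proteins, is in 72.3% of all stretches, once in Id2 and not in the printed stretches of Id3 or Id4. Of the 8 member genes with a stretch in the table, 5 hold GGCGCC, 5 GGAGCC, 3 CAGAC and 3 CANNTG. Their GC content ran from 60.0% to 79.3% against a median of 52.7% for all stretches, and GC-rich letters recur more often in such sequence. Bases outside this window were not searched, and any part of these matches in the Id2, Id3 or Id4 signals was not tested.

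**Figure D2:**
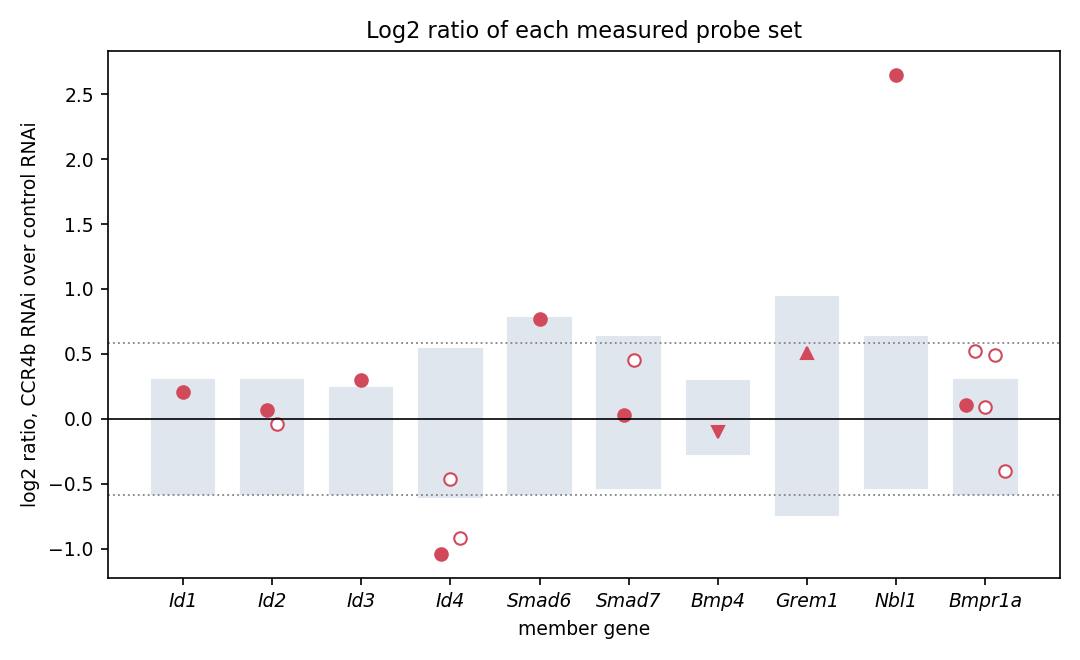
Log2 ratio of the CCR4b RNAi to the control signal for each measured probe set, by gene; filled symbols are the probe set that stands for the gene, open symbols the others, and triangles are bounds set by the floor. Shaded boxes are the class median ± 1 robust SD of genes of like signal, and dotted lines mark 1.5-fold; Nbl1, Id4 and, narrowly, Id3 are the genes with a filled circle outside the box, while the Bmp4 and Grem1 triangles do not place those genes.

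The inhibitory SMADs differed from each other in size. Smad6, which blocks BMP receptor signalling with some preference over that of other TGF-beta family members, read 14.6 units in the control and 24.9 units after CCR4b RNAi on the single probe set it has. That is 1.71-fold higher (log2 ratio 0.77), and 813 of the 11915 genes had a higher ratio. At this low signal the spread was wide (class median 0.10, robust SD 0.68), and Smad6 lay just within it, at percentile 81.8 of its class. Smad7, which acts on both BMP and TGF-beta receptors, read 24.7 and 25.2 units on its brighter probe set (log2 ratio 0.03), or -0.07 after each array was scaled by its median signal. Its dimmer probe set read 9.09 and 12.4 units (log2 ratio 0.45) and is open to cross-hybridisation. No RefSeq promoter stretch was matched for Smad7. The Smad6 stretch, at chr9:64022010-64022309 (minus strand), is shown because Smad6 was the only inhibitory SMAD past 1.5-fold, with the same motifs in capitals.
Smad6: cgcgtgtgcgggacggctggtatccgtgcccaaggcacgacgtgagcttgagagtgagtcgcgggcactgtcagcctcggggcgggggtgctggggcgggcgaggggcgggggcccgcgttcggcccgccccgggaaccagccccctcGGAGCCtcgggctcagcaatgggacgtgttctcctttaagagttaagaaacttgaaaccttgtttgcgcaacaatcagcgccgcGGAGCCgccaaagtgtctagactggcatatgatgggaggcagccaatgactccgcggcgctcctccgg
It holds 2 matches to GGAGCC, 102 and 18 bases upstream of the start, and no GGCGCC or CAGAC. One E-box letter pattern, CATATG, lies just downstream of the start.

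Of the secreted antagonists, Nbl1 gave the largest difference of the 10 genes. Nbl1 encodes DAN, the founding member of the cysteine-knot antagonists to which gremlin also belongs, first described as a gene suppressed in transformed fibroblasts. On its only probe set the signal was 10.3 units in the control culture and 64.8 units in the depleted one, a log2 ratio of 2.65. Only 6 of the 11915 measured genes had a higher ratio, and among genes of like signal, with a robust SD of 0.58, it lay at percentile 99.7. The control value is close to the floor, so the size of the ratio depends on a dim reading. With the floor raised to the 75th percentile, 35.8 units, the log2 ratio of Nbl1 was at least 0.85. Grem1, a strong antagonist of BMP2 and BMP4, read 6.0 units in the control, under the floor, and 11.5 units in the depleted culture (log2 ratio at least 0.51). Both antagonists thus read higher on the CCR4b RNAi array. Nbl1 lay past the spread of genes of like signal. The Grem1 bound itself lay within the spread of its class (median 0.10, robust SD 0.84), at percentile 67.6. As a bound it does not place Grem1 against that class. Without the floor the log2 ratio of Grem1 would be 0.94, so its size is not settled at this signal. The Nbl1 stretch, printed because this gene differed most, lies at chr4:139092921-139093220 on the minus strand.
Nbl1: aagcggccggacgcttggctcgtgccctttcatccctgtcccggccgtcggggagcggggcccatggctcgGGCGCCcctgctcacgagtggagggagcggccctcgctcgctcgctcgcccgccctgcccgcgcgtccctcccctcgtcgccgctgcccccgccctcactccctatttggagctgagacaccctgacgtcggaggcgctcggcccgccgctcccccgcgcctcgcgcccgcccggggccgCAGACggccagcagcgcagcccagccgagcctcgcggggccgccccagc
It holds 1 match to GGCGCC, 179 bases upstream, and 1 to CAGAC, which begins 1 base downstream of the start. Its GC content is 78.3%.

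The ligand was at the edge of measurement and the receptor differed little. Bmp4 read 8.65 units in the control, just above the floor, and 4.14 units after CCR4b RNAi, below it. Its ratio is therefore a bound, at least 1.07-fold lower (log2 ratio -0.10 or lower), and without the floor it would be -1.06. Bmpr1a, the type I receptor for BMP2 and BMP4, read 104 and 112 units on its brightest probe set (log2 ratio 0.11). Its next probe sets read 59.8 and 85.8 units (log2 ratio 0.52), 50.3 and 53.7 units (log2 ratio 0.09), and 34.2 and 47.9 units (log2 ratio 0.49). A dim probe set read 17.9 and 13.6 units (log2 ratio -0.40), and the sixth, at 4.71 and 1.26 units, was under the floor in both cultures. Thus 4 of the 5 measured Bmpr1a probe sets were higher and 1 was lower, all within 1.5-fold, although the same source sequence underlies all 5. The probe set at 0.52 is open to cross-hybridisation.

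**Figure D3:**
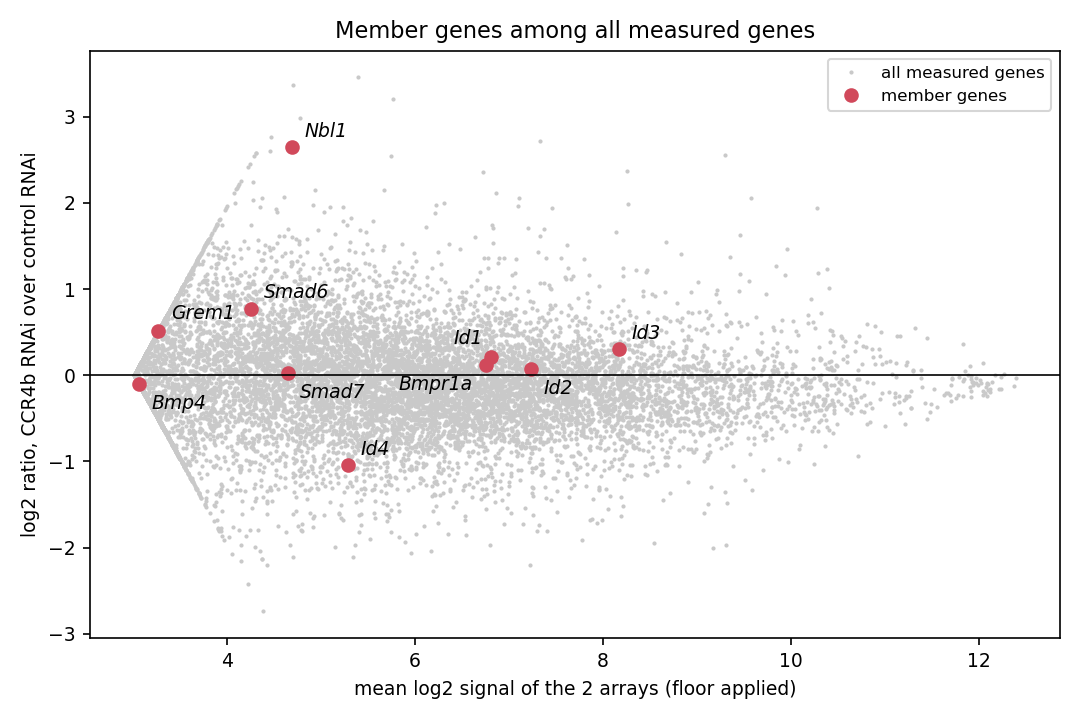
Log2 ratio of the CCR4b RNAi to the control signal against mean log2 signal for the 11915 measured genes (grey) and the 10 BMP and ID genes (red); the slanted edges at low signal are ratios set by the floor. Nbl1 sits near the upper edge of the cloud at 2.65, Id4 lies in its lower part at -1.04, and the remaining genes lie nearer 0.

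The rest of the pathway was read from 6 lists of other genes, 84 in all when each is counted once. Of these, 79 had a probe set of their own and 54 were measured. Above the floor on both arrays were 47 of the 54, and the ratios of the rest are bounds. The median log2 ratio of the 54 was 0.12, with 7 genes higher by 1.5-fold or more and 2 as much lower. That is 13.0% and 3.7% of the 54, beside 11.3% and 14.6% of all measured genes. At 2-fold 1 was higher and 0 were lower. These counts take each gene at its brightest probe set. At 1.5-fold the counts per list below also stand beside 11.3% of all measured genes higher and 14.6% lower. Of the 45 genes within 1.5-fold by that reading, 15 had another measured probe set past it, 9 in the higher direction and 6 in the lower. The like share of all genes was not computed, so this count shows only that probe sets disagreed. Of all measured probe sets, 12.7% were at least 1.5-fold higher and 14.4% lower.

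Few other ligands were detected. Of 10 with a probe set, 7 were below the floor on both arrays, Bmp2 at 0.402 and 2.86 units among them. Gdf2, which encodes BMP9, a ligand of the type I receptor ALK1, read 9.34 and 19.7 units (2.12-fold higher, log2 ratio 1.08), close to the floor. Bmp1, a procollagen protease that is not a BMP ligand in the strict sense and that also cleaves the antagonist chordin, read 37.9 and 50.4 units (log2 ratio 0.41) and was likewise higher on its second probe set (log2 ratio 0.38).

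On their brightest probe sets 0 of 8 measured receptors and co-receptors passed 1.5-fold in either direction. Bmpr2, the type II receptor, read 174 and 201 units (log2 ratio 0.21), and its dimmer probe set had a log2 ratio of 0.22. Acvr1, the type I receptor ALK2, read 126 and 103 units (log2 ratio -0.29), whereas its dimmer probe sets had log2 ratios of 0.17 and, as a bound, 0.24. The log2 ratios of the 8 genes ran from -0.29 to 0.31. Probe sets disagreed for Rgmb, a co-receptor of the repulsive guidance family, which read 21.7 and 19.3 units on the brightest of 6 (log2 ratio -0.17) but 13.7 and 21.7 units (log2 ratio 0.67) and 9.93 and 18.2 units (log2 ratio 0.87) on dimmer ones.

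Of 15 other secreted antagonists and modulators with a probe set, 7 were measured, and on their brightest probe sets 0 were higher by 1.5-fold or more and 1 was as much lower. That gene was Chrdl2, a chordin-like protein, which passed from 12.6 units to 1.51 units, below the floor, and was at least 1.56-fold lower. Follistatin (Fst), which binds activins and some BMPs, read 54.2 and 61.8 units on its brighter probe set (log2 ratio 0.19) and 21.6 and 38.1 units on the other (log2 ratio 0.82), past 1.5-fold. Noggin (Nog), at 1.25 and 1.85 units, was below the floor on both arrays. The brightest of the list were Fstl1, a follistatin-related glycoprotein of fibroblasts, at 1401 and 1603 units (log2 ratio 0.19, with 0.22 on its second probe set), and Twsg1, which modulates the binding of chordin to BMPs, at 236 and 251 units (log2 ratio 0.09).

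**Figure D4:**
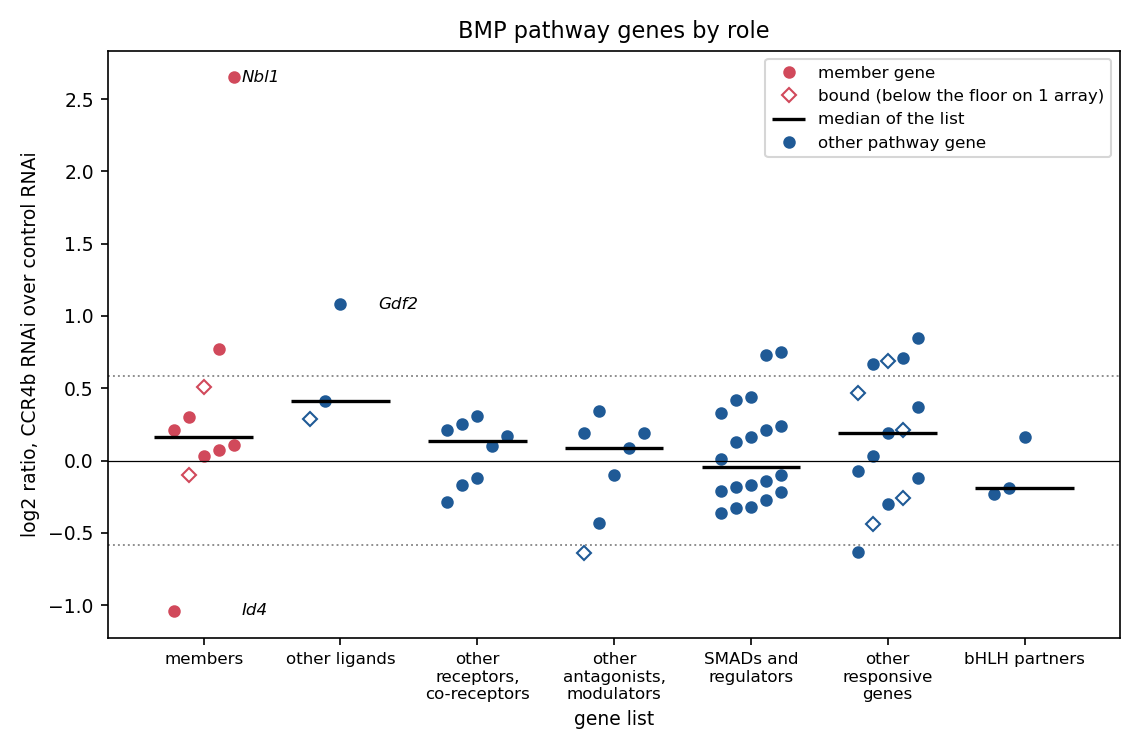
Log2 ratio of the CCR4b RNAi to the control signal for measured genes by role, 1 symbol per gene (red for the 10 BMP and ID genes, blue for others, open diamonds for bounds), with black bars for list medians and dotted lines at 1.5-fold; Bambi and Fst stand in 2 lists. List medians run from -0.19 for the basic helix-loop-helix (bHLH) partners to 0.41 for other ligands, and Nbl1, Gdf2 and Id4 are the labelled genes past 2-fold.

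Inside the cell, 20 of 22 listed SMADs and regulators were measured, with a median log2 ratio of -0.05, of which 2 passed 1.5-fold in the higher direction and 0 in the lower on their brightest probe sets. Of the other 18, 9 had a dimmer probe set past 1.5-fold, 5 higher and 4 lower, again with no like share of all genes computed. Smad4, the common partner, read 198 and 230 units (log2 ratio 0.21). Smad5 read 45.4 and 61.7 units (log2 ratio 0.44), but its probe sets ran from -1.23 to 0.44. Smad1 read 186 and 169 units (log2 ratio -0.14). Its dimmer probe sets read 129 and 72.5 units (log2 ratio -0.83) and 38.7 and 18.8 units (log2 ratio -1.04). All 3 Smad1 probe sets were thus lower, by differing amounts, whereas those of Smad5 differed in sign. Smad9 was below the floor on both arrays. Those past 1.5-fold were Hivep2, which encodes Schnurri-2, a cofactor of SMAD complexes, at 18.3 and 30.8 units (log2 ratio 0.75, with 0.65 on its second probe set), and Smurf1, a ubiquitin ligase that marks BMP SMADs for degradation. Smurf1 read 28.1 and 46.7 units (log2 ratio 0.73). The brightest genes of the list were Ywhae, a 14-3-3 protein, at 1383 and 1101 units (log2 ratio -0.33), and Ctdsp2, a phosphatase that acts on SMADs, at 988 and 1085 units (log2 ratio 0.13 on a probe set open to cross-hybridisation and -0.24 on the next).

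Of 22 other genes known to respond to BMPs, 15 were measured, with a median log2 ratio of 0.19. Only 10 of these were above the floor on both arrays, and the ratios of the rest are bounds. Among the 15, 4 were higher by 1.5-fold or more and 1 was as much lower. That is 26.7% and 6.7%, beside 11.3% and 14.6% of all measured genes. Snai2, a repressor of epithelial genes that many further signals also induce, was the brightest of the list, at 447 and 806 units (1.80-fold higher, log2 ratio 0.85). Cross-hybridisation is possible on that Snai2 probe set, and the other read 77.6 and 115 units (log2 ratio 0.57). Junb, an AP-1 subunit that serum induces as well, read 18.1 and 29.6 units (log2 ratio 0.71). Atoh8, a bHLH factor, read 19.0 and 30.1 units (log2 ratio 0.67). Msx1, a homeobox gene, passed from 2.69 units to 13.0 units on a probe set open to cross-hybridisation (at least 1.61-fold higher) while its other probe set was under the floor in both cultures. Alpl, the alkaline phosphatase of osteoblasts, read 14.1 and 9.08 units (log2 ratio -0.63). Klf10, an early responder to TGF-beta family ligands, had a log2 ratio of 0.03 at 90.3 and 92.2 units. The pathway's responsive genes thus included members on each side of 0, as the ID genes did.

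The E proteins, with which ID proteins pair, differed little on their brightest probe sets. Tcf12 read 293 and 257 units (log2 ratio -0.19), Tcf4 148 and 166 units (log2 ratio 0.16) and Tcf3 67.5 and 57.3 units (log2 ratio -0.23), each within the spread of genes of like signal. Dimmer probe sets of Tcf4 ran up to 0.60 and those of Tcf3 down to -0.76. For Tcf12 a dim one passed from 4.24 to 23.3 units, a log2 ratio of at least 1.53.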

How the data were processed

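Messenger RNA was measured in 2 samples, 1 array per group, and the knockdown label gave the groups. The authors deposited linear intensities, 1 per probe set, made in GCOS with a global normalization, per the series design text and the submitters' processing notes. The sources used here do not state the GCOS version or the normalization target, and the table has no detection calls. The number of arrays limits the precision.

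Genes were taken from the platform annotation, using the 34958 probe sets with a single symbol; another 932 carry more than 1 and 9211 none. Of those used, 34754 matched the GRCm38.p6 RefSeq table by gene ID. Intensities were raised to the floor (50th percentile of both arrays) and turned into log2 ratios, and each gene was represented by its brightest probe set (mean log2 signal before the floor). A ratio with 1 array under the floor is a bound. Probe sets ending in _x_at or _s_at are those open to cross-hybridisation. No threshold on fold is a test. The steps were tested on simulated data, with changes placed only in genes whose control signal was well above the floor. Recovery of changes in genes as dim as Nbl1, Smad6, Smad7, Bmp4 and Grem1 was not covered.

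The 10 genes, the gene lists and the thresholds were chosen with earlier results of these data known. Named genes were the 10 genes with all probe sets, per list up to 4 per direction past 1.5-fold and the 2 brightest, the E proteins and Cnot6l; Bmp2, Nog, Smad1, Smad4, Smad5, Smad9, Bambi, Fst, Rgmb, Mki67, Vim, Sparc, Thy1 and the 4 measured markers of other cell types were named after their values were seen. The 8 alternatives were quantile normalization, division by the array median, loess (span 0.3), a floor at the 25th or the 75th percentile, log2(signal + 1) with no floor, the median over probe sets, and leaving out probe sets open to cross-hybridisation. Python 3.11.15, numpy 2.4.6, pandas 2.3.3, statsmodels 0.14.6 and matplotlib 3.10.9 were used. RefSeq promoters were matched by symbol for 8 of the 10 genes, all but Id1 and Smad7.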

Additional observations from a re-analysis of the deposited data

How the results depend on the processing

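The median of the 10 genes (0.07 to 0.29) and that of the ID genes (0.05 to 0.28) stayed above 0 under all 8 alternatives. The place of 0 depends on the scaling, since the median of all measured genes moved too. It was -0.16 with division by the array median and -0.01 with loess, where the 10 genes had 0.07 and 0.29. Changing or dropping the floor, or leaving out probe sets open to cross-hybridisation, left the medians of the 10 genes and the ID genes at their main values of 0.16 and 0.14. Those settings thus say little about the medians. Counts moved by over 1.5 times only where the floor was changed or dropped, which changes how many genes are measured and which ratios are bounds. With the floor at the 25th percentile, 2 of the 10 genes were at least 1.5-fold lower (Id4 and Bmp4), as without a floor, and Grem1 passed 1.5-fold higher under both. With the floor at the 75th percentile, 1 was higher (Nbl1), and 6 of the 10 genes were measured. Of 71 other pathway genes measured with the 25th, 13 were higher and 10 lower, beside 19.8% and 21.6% of all measured genes. With the 75th, 1 of 30 was higher and 0 were lower, beside 6.5% and 14.1%. Without a floor, 15 of 79 were higher and 11 lower, beside 19.5% and 21.1%. The same shares of all genes stand beside the counts of the 10 genes under these settings. Dim signals thus limit these counts. Dividing each array by its median changed the share of higher genes among all measured genes past 1.5-fold from 43.7% to 32.4%. Nbl1 ran from 0.85, as a bound, to 2.65 and Id4 from -1.13 to -0.65, also a bound. No paired analysis was possible because each group holds 1 array.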
